A study of Mus musculus with 8 samples.

Results

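The carbonic anhydrases are a family of zinc enzymes, and 10 of its mouse genes were examined here in developing lung macrophages with and without the nuclear receptor PPARγ. The members were the genes Car1, Car2, Car3, Car4, Car5b, Car6, Car8, Car12, Car13 and Car14, taken through the probe sets to which the platform annotation gives a single symbol. A value was available for 9 of the 10, among 18782 genes measured in all, and each of the 9 had 1 probe set. Car14, a membrane-spanning member, was listed on 2 probe sets only together with a second gene, so it was given no value and is not described further.

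Macrophages were profiled on 8 Affymetrix arrays in 4 groups of 2, each array holding the RNA of sorted cells pooled from 2 mice of C57BL/6 background. KO mice carried CD11c-Cre with Pparg fl/fl, and WT mice carried the loxP-flanked Pparg alleles (PPARg fl/fl), with no Cre named, so both genotypes had the flanked gene. CD11c-Cre acts in any cell that expresses CD11c, which includes dendritic cells as well as alveolar macrophages. The groups were KO at day 2 after birth, labelled arrested preAM, WT at day 2, labelled preAM, KO at day 11, labelled arrested immature preAM, and WT at day 11, labelled mature AM (AM, alveolar macrophage). The sort gates differed between the ages, so age cannot be told apart from gate. At day 2 the sort took CD45+ F4/80+ CD11c-high cells through one of a pair of gates. One gate was intermediate for both Siglec-F and CD11b, the other low for Siglec-F and high for CD11b, and the labels do not tie a gate to a genotype. At day 11 cells high in autofluorescence and CD11c and positive for Siglec-F were taken, CD11b being high in KO mice and low in WT mice, so genotype cannot be told apart from gate. Nothing says that same-numbered pools shared a litter, and p-values measure the spread between pools.

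Carbonic anhydrases convert carbon dioxide and water to bicarbonate and a proton, and back. They differ mainly in where they sit: Car1, Car2, Car3 and Car13 are cytosolic, Car5b is mitochondrial, Car6 is secreted, Car4 is anchored to the outer face of the plasma membrane by a lipid tail, and Car12 and Car14 span the membrane. Car8 is a cytosolic relative that has lost the catalytic activity. In the lung, Car4 is known from capillary endothelium, and its RNA is also a mark of alveolar macrophages.

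All values are log2 signals as the authors summarised them by RMA, a method that corrects background, brings the arrays to 1 distribution and merges the probes of each set. The median signal of every array was 5.35. Signals of different probe sets are not comparable, so each gene is compared only with itself across groups. Of the measured members, Car1, Car2, Car3, Car8 and Car12 lay below the array median on all 8 arrays, and no detection calls were available. Replicate arrays correlated across genes with r from 0.994 to 0.998. Pparg itself gave 10.55 and 10.74 in the KO pools at day 2 and 10.89 and 11.01 in the WT pools. At day 11 it gave 11.32 and 11.36 in KO and 11.18 and 11.13 in WT. The sources used here do not give where its probes lie relative to the deleted part, so these values check nothing about the deletion. The PPARγ target Cidec, a lipid droplet gene, was 16.3-fold lower in KO at day 2 and 16.2-fold lower at day 11 (limma adjusted p = 2.29e-06 and 2.22e-06). The summed linear signal of 21 alveolar macrophage markers was 26101 and 28195 in KO and 37339 and 38013 in WT at day 2, and 37675 and 39006 in KO and 50692 and 50390 in WT at day 11, and none of the 21 lay below the array median on all 8 arrays. As drawn up, the list names Siglecf and Itgax (CD11c), whose proteins were used in the sort, and also Pparg itself and Cidec. One pool stood apart: KO replicate 1 of day 2 was high in genes of the interferon response, and results for Car13 are given with and without it.

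Promoter sequence was held for 5 of the 10 members (Car4, Car5b, Car6, Car12 and Car14) in a table from RefSeq, build GRCm38.p6, covering 250 bases before to 50 after the start of each gene. Those of Car6 and Car4 are printed because Car6 was called at both ages and Car4, bright on every array, at neither. Capitals mark matches to ACGTG, the core of elements bound by low-oxygen factors, and to TATAAA. The Car6 promoter lies at chr4:150201086-150201385 on the minus strand and the Car4 promoter at chr11:84957504-84957803 on the plus strand.
Car6: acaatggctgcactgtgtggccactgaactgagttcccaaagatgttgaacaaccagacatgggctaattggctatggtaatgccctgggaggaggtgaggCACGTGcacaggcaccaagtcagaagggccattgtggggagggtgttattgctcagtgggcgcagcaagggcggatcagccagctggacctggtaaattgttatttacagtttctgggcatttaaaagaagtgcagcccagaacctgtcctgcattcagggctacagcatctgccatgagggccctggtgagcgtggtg
Car4: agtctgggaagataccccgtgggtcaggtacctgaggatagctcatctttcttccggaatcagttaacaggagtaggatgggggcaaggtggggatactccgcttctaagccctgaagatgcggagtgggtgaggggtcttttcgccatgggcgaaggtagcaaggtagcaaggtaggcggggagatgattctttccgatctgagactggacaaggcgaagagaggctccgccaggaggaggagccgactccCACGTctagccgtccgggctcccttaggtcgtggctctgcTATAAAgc
In Car6, matches to ACGTG on both strands overlapped at position -149 and formed CACGTG, the E-box that is bound by many helix-loop-helix factors. Car4 held ACGTG on the minus strand at position 3 and TATAAA at position 43. Of 32544 promoters of this length, 19.7% held ACGTG, 7.17% held CACGTG and 13.6% held TATAAA on either strand. AGGTCA, a motif bound by nuclear receptors such as PPARγ, was found in 16.2% of all promoters, and its direct repeat with 1 base between in 0.04%. Neither was in these windows, nor were GAGGAA (28.1% of promoters), TTGCNNAA (10.8%) or TGANTCA (7.79%). A match describes letters, not a bound site.

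Genotype was compared first, at each age. Of the 9 members, Car6 was higher in KO cells at both ages, Car13 was higher in KO cells at day 11, and Car1 was slightly lower in KO cells at day 2. No other member passed the test in either genotype comparison. That made 2 of 9 members at day 2 and 2 of 9 at day 11, while 20.1% of all 18782 genes were called at day 2 and 18.6% at day 11. The count of members was therefore close to that of genes in general. Calls used limma's test, with p-values adjusted over all genes by Benjamini and Hochberg and a threshold of 0.05. The median difference of the members was 0.15 at day 2 and 0.02 at day 11, against -0.03 and 0.00 for all genes.

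**Figure D1:**
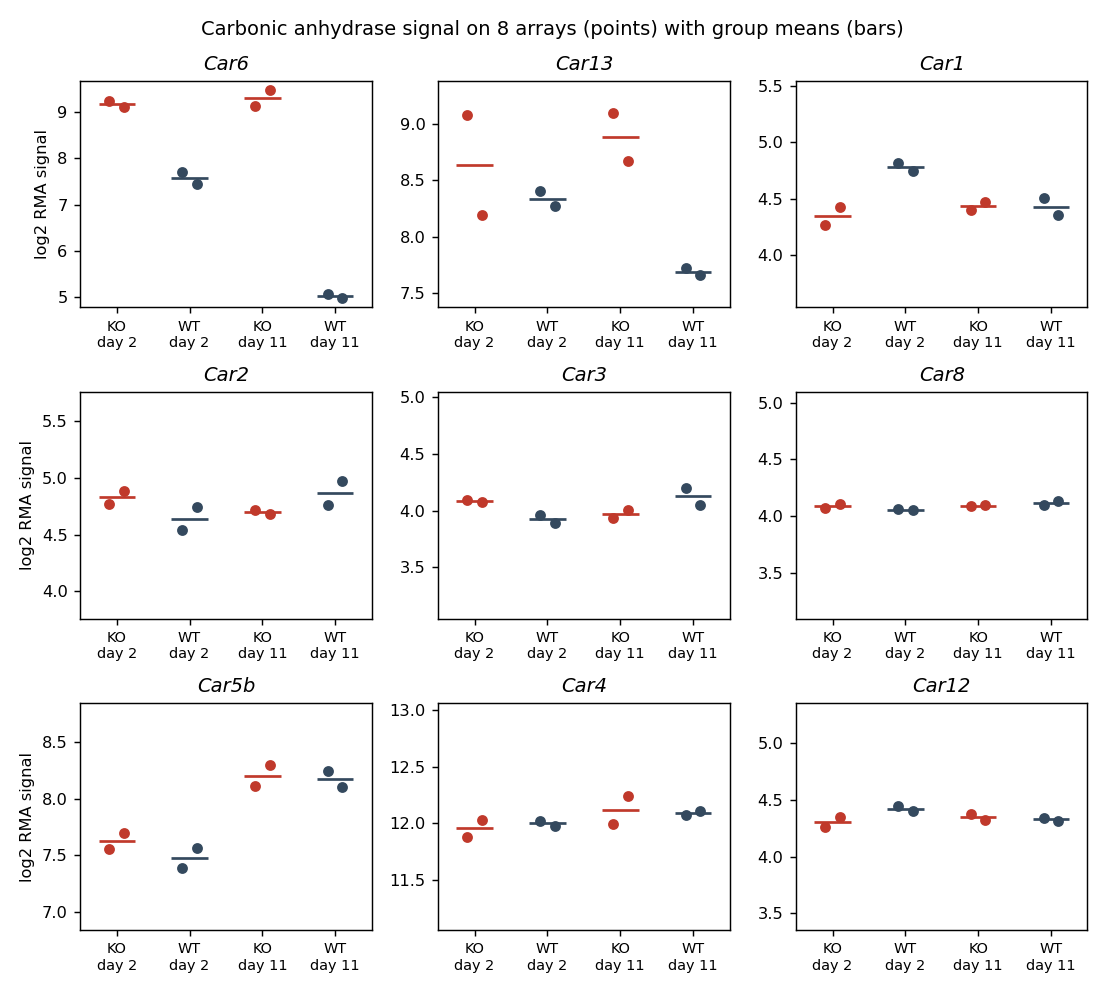
Log2 RMA signal of the 9 measured carbonic anhydrases on each of 8 arrays. Points are single arrays, bars are means of the 2 arrays of a group, red is KO and dark blue is WT. Axes cover different ranges. Car6 runs between 4.98 and 9.48, while Car8 and Car12 keep within 0.09 and 0.18 log2 units over all arrays.

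Car6 encodes the secreted enzyme, best known from saliva and milk. At day 2 its signal was 9.24 and 9.11 in the KO pools and 7.72 and 7.45 in the WT pools. The KO pools of day 11 gave 9.14 and 9.48, against 5.06 and 4.98 in the WT pools of that age. Every KO array lay above every WT array, and the WT arrays at day 11 alone lay below the array median. The difference between KO and WT was 1.60 ± 0.13 (SE, n = 2 arrays per group) at day 2, or 3.03-fold (limma adjusted p = 0.000124). The day 11 difference was 4.29 ± 0.13, or 19.6-fold (limma adjusted p = 2.2e-06). By absolute size this day 11 difference ranked 8 among the 18782 genes.

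Across age, Car6 fell in WT cells and showed no call in KO cells. The day 11 minus day 2 difference was 0.13 ± 0.13 in KO, with a 95% interval of -0.17 to 0.43 (limma adjusted p = 0.593). In WT it was -2.56 ± 0.13, a 5.91-fold lower signal at day 11 (limma adjusted p = 0.000158). The genotype difference grew by 2.69 ± 0.18 between the ages, as the interaction of genotype and age measured (limma adjusted p = 0.000536). The order of the group means was thus 9.31 ± 0.24 in KO at day 11, 9.18 ± 0.09 in KO at day 2, 7.58 ± 0.19 in WT at day 2 and 5.02 ± 0.06 in WT at day 11 (SD, n = 2 each). The top pair of groups did not differ beyond their spread, and each step below did. All 4 of these calls held when any single array was left out, the day 2 difference ranging from 1.46 to 1.73 and the day 11 difference from 4.13 to 4.46.

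**Figure D2:**
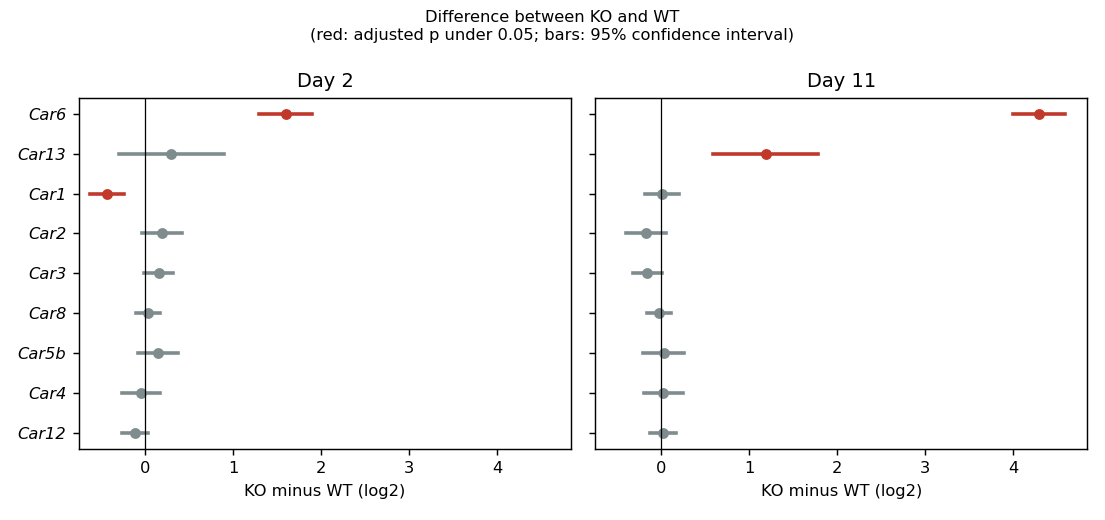
Difference between KO and WT for each member at day 2 (left) and day 11 (right), in log2 units. Points are the limma estimates and bars their 95% intervals, red where the adjusted p was under 0.05. Car6 stands at 1.60 and 4.29, and the intervals of Car4 and Car8 lie close around 0 at both ages.

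Markers of other cell states moved with genotype too, among them Itgam of the monocyte list, which encodes the sorted CD11b. At day 11 Itgam was at 10.86 and 10.66 in KO, sorted as CD11b high, and at 6.22 and 6.32 in WT, sorted as CD11b low. Siglecf of the alveolar macrophage list also encodes a sorted protein, so the gates bear on the counts and sums below. The shares called over all genes were 20.1% at day 2 and 18.6% at day 11. Of 13 measured monocyte markers, 11 were higher and none lower in KO at day 2, and 6 were higher and 1 lower at day 11. Their summed linear signal was 21966 and 19672 in KO and 10047 and 9882 in WT at day 2, and 14204 and 13781 in KO and 9505 and 9725 in WT at day 11. Of 21 alveolar macrophage markers, 14 were lower and 5 higher in KO at day 2, and 10 were lower and 3 higher at day 11. In KO cells the monocyte sum was thus lower at day 11 than at day 2, where Car6 had no call. The part of these markers in the Car6 result was not tested, and in such sorted bulk samples more cells of a type and more RNA per cell cannot be told apart.

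The genes whose signal most resembled that of Car6 over the 8 arrays were Crip1 (r = 0.999), Wfdc17 (0.990), Ecm1 (0.986) and S100a6 (0.985), out of 1388 genes whose group means spanned at least 1 log2 unit. Crip1 encodes a small LIM-domain protein, Wfdc17 a secreted protein with a whey acidic domain, Ecm1 an extracellular matrix protein and S100a6 a calcium-binding protein. Ecm1 gave 10.33 and 10.34 in KO and 8.37 and 8.28 in WT at day 2, and 10.88 and 10.65 in KO and 6.35 and 6.21 in WT at day 11. Crip1 ran over a narrower range and its KO groups lay together, with 11.89 and 11.90 in KO and 11.31 and 11.16 in WT at day 2, and 11.84 and 11.93 in KO and 10.33 and 10.24 in WT at day 11. These r values describe 8 points that share their groups.

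**Figure D3:**
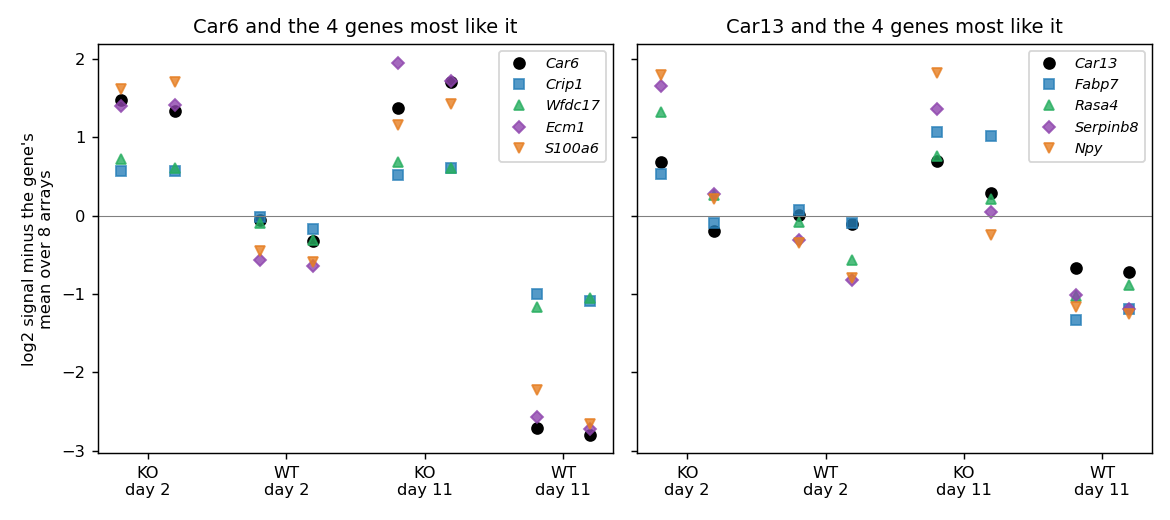
Signal of Car6 (left) and Car13 (right) with the 4 genes most like each, on 8 arrays, as log2 signal minus the gene's own mean. Black circles are the carbonic anhydrase and coloured symbols the other genes. Around Car6 both replicates of each group agree closely, while around Car13 the KO replicates lie apart in Rasa4, Serpinb8 and Npy.

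Neighbours of Car6 on chromosome 4 were read in the gene order of the RefSeq table. The 2 nearest measured genes before it, Slc2a7 and Slc2a5, which encode sugar transporters, differed by -0.01 and -0.13 between KO and WT at day 11. The 2 after it, Rere and Slc45a1, differed by 0.25 and 0.06. None of the 4 was called at day 11, and 1 was called at day 2, namely Rere at 0.53 ± 0.12 (limma adjusted p = 0.015).

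Car13 is one of the cytosolic enzymes. At day 2 its signal was 9.08 and 8.19 in the KO pools and 8.40 and 8.27 in the WT pools. At day 11 it was 9.09 and 8.67 in the KO pools and 7.72 and 7.66 in the WT pools. The groups overlapped at day 2, where 1 KO pool lay above and the other below both WT pools, and did not overlap at day 11. The difference between KO and WT was 0.30 ± 0.26 at day 2, with a 95% interval of -0.30 to 0.89 (limma adjusted p = 0.498). The day 11 difference was 1.19 ± 0.26, or 2.28-fold (limma adjusted p = 0.0149). That call was lost without KO replicate 1 at day 11 (0.98, adjusted p = 0.09), without WT replicate 1 (1.22, adjusted p = 0.0761), without WT replicate 2 (1.16, adjusted p = 0.0825) and with a trended, robust prior (adjusted p = 0.0518).

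The 2 KO pools at day 2 differed from each other in Car13 and in genes of the interferon response. The median of 11 such genes was 9.31 in KO replicate 1 and 5.29 in KO replicate 2, against 4.90 and 4.54 in WT at day 2, and it was 5.17 and 4.63 in KO and 4.91 and 4.57 in WT at day 11. Car13 was at 9.08 in KO replicate 1 of day 2 and at 9.09 in KO replicate 1 of day 11. The part of the interferon response in the Car13 signal was not tested. Without the interferon-high pool the day 2 difference in Car13 was -0.14, and without the other KO pool it was 0.74 (limma adjusted p = 0.0179).

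**Figure D4:**
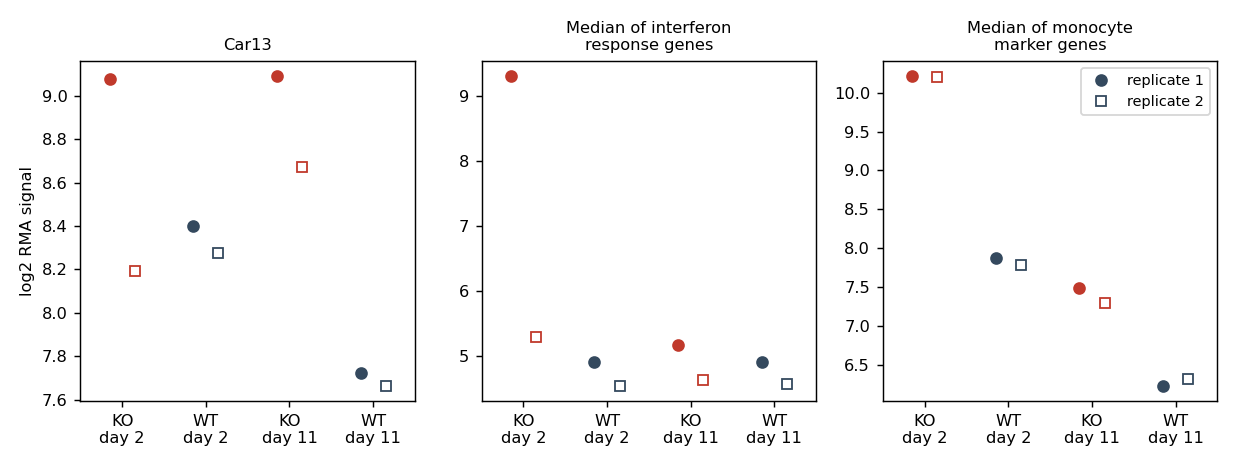
Log2 RMA signal of Car13 (left), the median of 11 interferon response genes (middle) and the median of 13 monocyte markers (right) in each group. Filled circles are replicate 1 and open squares replicate 2, red is KO and dark blue WT. At day 2 the KO pools lie 9.08 against 8.19 in Car13 and 9.31 against 5.29 in the interferon median, while their monocyte medians are 10.21 and 10.20.

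With age, the Car13 difference was 0.24 ± 0.26 in KO (limma adjusted p = 0.621) and -0.65 ± 0.26 in WT (limma adjusted p = 0.201), neither of which was called. The interaction, 0.89 ± 0.36, was not called either (limma adjusted p = 0.271). The WT difference passed the test when the fit held only the WT groups (limma adjusted p = 0.00464) or left out either KO pool of day 2 (adjusted p = 0.031 each). Without the interferon-high pool, the rise with age in KO was 0.69 (limma adjusted p = 0.0425) and the interaction 1.33 (adjusted p = 0.0226).

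The genes most like Car13 were Fabp7 (r = 0.929), Rasa4 (0.921), Serpinb8 (0.913) and Npy (0.904), again out of 1388. Fabp7 encodes a fatty acid carrier, Rasa4 an inhibitor of Ras signalling, Serpinb8 a protease inhibitor and Npy a neuropeptide. Npy gave 8.54 and 6.96 in KO and 6.41 and 5.95 in WT at day 2, and 8.57 and 6.51 in KO and 5.58 and 5.49 in WT at day 11. In Npy as in Car13, replicate 1 was the higher KO pool at both ages, although the labels state no link between same-numbered pools. Next to Car13 on chromosome 3 lie Car1 and Car3 on one side, and Rbis and E2f5 on the other. Of these 4, E2f5, a cell cycle transcription factor gene, was higher in KO at day 2 by 0.34 ± 0.09 (limma adjusted p = 0.0292) and at day 11 by 0.38 ± 0.09 (adjusted p = 0.0174).

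The other cytosolic members were all below the array median. Car1, an abundant enzyme of red cells, was at 4.27 and 4.43 in KO and 4.82 and 4.75 in WT at day 2, and at 4.40 and 4.47 in KO and 4.50 and 4.36 in WT at day 11. The WT pools of day 2 thus stood above the remaining arrays, by a small margin. Its difference between KO and WT was -0.43 ± 0.08 at day 2, or 1.35-fold lower (limma adjusted p = 0.00848), and 0.01 ± 0.08 at day 11 (adjusted p = 0.977). With age in WT it differed by -0.35 ± 0.08, which was not called (limma adjusted p = 0.0547), but passed without either KO pool of day 2 (0.039) or in a fit of the WT groups alone (0.0421). The day 2 call was lost without WT replicate 1 (-0.40, adjusted p = 0.0615). Of 19 listed erythroid markers 10 had a value, and 9 of the 10 were below the array median on all arrays. None of the 10 was called in either genotype comparison, while 20.1% of all genes were called at day 2 and 18.6% at day 11. Their summed linear signal was 236 and 224 in KO and 214 and 217 in WT at day 2. The part of red cells in the Car1 difference was not tested.

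Car2, the fast enzyme of red cells and osteoclasts, lay between 4.54 and 4.98 over all arrays. Its differences between KO and WT were 0.19 ± 0.10 at day 2 and -0.17 ± 0.10 at day 11, neither called (limma adjusted p = 0.241 and 0.319). Car3, a slow enzyme of muscle and fat, lay between 3.89 and 4.20, with differences of 0.16 ± 0.07 and -0.16 ± 0.07 (limma adjusted p = 0.188 and 0.199). Car8, which binds the inositol trisphosphate receptor, kept between 4.05 and 4.14, and its 2 genotype differences were 0.03 and -0.03. The intervals for Car8 were -0.10 to 0.17 at day 2 and -0.16 to 0.11 at day 11. Dim probe sets such as these have no detection call to set them apart from background.

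Car5b, the mitochondrial enzyme, differed between the ages, whose sort gates differed too, and not detectably between the genotypes. It was at 7.55 and 7.69 in KO and 7.39 and 7.56 in WT at day 2, and at 8.11 and 8.29 in KO and 8.25 and 8.11 in WT at day 11. All 4 arrays of day 11 lay above all 4 of day 2, and the genotypes overlapped at each age. The day 11 minus day 2 difference was 0.58 ± 0.10 in KO, or 1.49-fold (limma adjusted p = 0.00734), and 0.70 ± 0.10 in WT, or 1.63-fold (adjusted p = 0.0083). The difference between these changes, -0.12 ± 0.14, had an interval of -0.44 to 0.20 (limma adjusted p = 0.731). The WT call was lost without WT replicate 1 of day 2 (0.62, adjusted p = 0.076) or WT replicate 1 of day 11 (0.63, adjusted p = 0.0782), and the KO call held without any single array.

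Over all members, 1 of 9 was called between the ages in KO, Car5b, and 2 of 9 in WT, Car5b and Car6. The sort gate differed between the ages as well. Among all genes 15.5% were called with age in KO and 5.30% in WT. The interaction was called for 1 of 9 members, Car6, and for 3.27% of all genes. The median change of the members with age was 0.09 in KO and 0.06 in WT, against 0.01 and -0.01 for all genes.

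**Figure D5:**
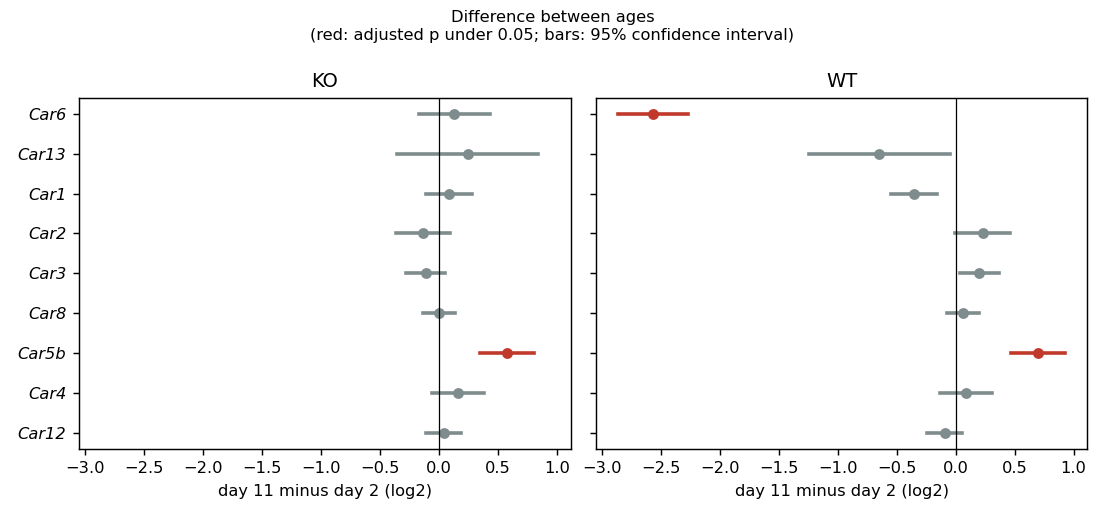
Difference between day 11 and day 2 for each member in KO (left) and WT (right), in log2 units. Points are limma estimates and bars their 95% intervals, red where the adjusted p was under 0.05. Car5b is at 0.58 and 0.70 in the 2 genotypes, and Car6 at 0.13 in KO and -2.56 in WT.

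Car4, the lipid-anchored enzyme of the cell surface, kept a high signal in every group. It was at 11.88 and 12.03 in KO and 12.02 and 11.98 in WT at day 2, and at 11.99 and 12.24 in KO and 12.07 and 12.11 in WT at day 11. The 8 arrays spanned 0.36 log2 units, and none of the contrasts was called. The difference between KO and WT was -0.04 ± 0.09 at day 2, with an interval of -0.26 to 0.17 (limma adjusted p = 0.807). At day 11 it was 0.03 ± 0.09, with an interval of -0.19 to 0.24 (adjusted p = 0.915). Car4 lay above 99.0% of the probe sets on every array, which does not rank its RNA amount, as signals of different probe sets are not comparable. Of the 21 alveolar macrophage markers, 14 were lower, 5 higher and 2 not called in KO at day 2, and 10 were lower, 3 higher and 8 not called at day 11. Among all genes the shares called were 20.1% at day 2 and 18.6% at day 11. The keratin gene Krt79, with the largest difference of the list at day 11, fell by 4.25 ± 0.13 at day 2 and 5.33 ± 0.13 at day 11 (log2, limma adjusted p = 2.29e-06 and 1.1e-06).

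Capillary endothelium also carries Car4, so its markers were read beside it. Of 19 endothelial markers, 4 were higher and 2 lower in KO at day 2, and 1 was higher and 2 lower at day 11. The shares called over all genes were 20.1% at day 2 and 18.6% at day 11. The endothelial genes Kdr, Pecam1 and Eng rose by 1.68 ± 0.40, 1.68 ± 0.10 and 1.56 ± 0.14 at day 2 (limma adjusted p = 0.0206, 2.98e-05 and 0.000188). Calcrl differed by -0.68 ± 0.09 at day 2 and -0.44 ± 0.09 at day 11 (limma adjusted p = 0.0012 and 0.0107). At day 11 Eng differed by 0.57 ± 0.14 and Emcn by -0.28 ± 0.08 (limma adjusted p = 0.0246 and 0.043). Cdh5, the endothelial cadherin, gave 7.35 and 7.22 in KO and 6.74 and 6.84 in WT at day 2, and 6.51 and 6.52 in KO and 6.62 and 6.59 in WT at day 11. The summed signal of the list was 1515 and 1413 in KO and 1257 and 1247 in WT at day 2, and 1315 and 1238 in KO and 1421 and 1465 in WT at day 11. The sum was thus higher in KO at day 2 and lower in KO at day 11, while Car4 had no call at either age. Calcrl weighed heavily in the sum, at 8.93 and 8.73 in KO and 9.23 and 9.30 in WT at day 11. The median difference of the 19 markers was 0.05 at day 2 and -0.10 at day 11. The part of endothelium in the Car4 signal was not tested.

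Among 1389 genes whose group means spanned at least 1 log2 unit, those most like Car4 were Ddah1 (r = 0.898), Retnla (0.852), Slc6a4 (0.816) and Pvt1 (0.811). Ddah1 encodes an enzyme that breaks down methylated arginine, Retnla a secreted resistin-like protein, Slc6a4 the serotonin transporter and Pvt1 a long noncoding RNA. Retnla was at 4.71 and 6.51 in KO and 5.31 and 5.96 in WT at day 11, against 3.68 and 4.04 in KO and 3.65 and 3.32 in WT at day 2. With so narrow a range in Car4, likeness rests on differences of the size of the spread between replicates.

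Car12, which spans the membrane and is known as a gene induced by low oxygen in tumour cells, was dim throughout, between 4.26 and 4.45. Its differences between KO and WT were -0.11 ± 0.06 at day 2 and 0.02 ± 0.06 at day 11, and neither was called (limma adjusted p = 0.271 and 0.92). Of the carbonic anhydrase genes outside the 10 members, 5 had a value, namely Car7, Car9, Car10, Car11 and Car15. Of these 1 was higher in KO at day 2, Car9, the low-oxygen enzyme of the cell surface, and none was called at day 11. Car9 gave 6.57 and 6.64 in KO and 6.30 and 6.18 in WT at day 2, and 6.93 and 6.68 in KO and 6.65 and 6.61 in WT at day 11. Its differences were 0.37 ± 0.09 (limma adjusted p = 0.0245) and 0.18 ± 0.09 (adjusted p = 0.258).

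Of 21 measured genes of the low-oxygen response, 6 were higher and 2 lower in KO at each age, with median differences of 0.16 at day 2 and 0.12 at day 11. Over all genes 20.1% were called at day 2 and 18.6% at day 11. Egln3, an oxygen-sensing hydroxylase gene, and Pdk1, a kinase gene of pyruvate use, fell by 1.82 ± 0.15 and 1.12 ± 0.08 at day 2 (limma adjusted p = 0.000124 and 7.17e-05). The growth factor gene Vegfa and Ndrg1 rose by 1.54 ± 0.20 and 1.07 ± 0.13 (limma adjusted p = 0.00108 and 0.000872). At day 11 the glucose transporter gene Slc2a1 rose by 1.06 ± 0.12 and the hexokinase gene Hk2 by 1.02 ± 0.12 (limma adjusted p = 0.000587 and 0.000891). Ndrg1 rose by 0.95 ± 0.13 at that age, and Pdk1 fell by 0.98 ± 0.08 (limma adjusted p = 0.00167 and 0.000138).

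Bicarbonate made by carbonic anhydrases crosses membranes through exchangers and cotransporters. Of 15 measured genes of the Slc4 and Slc26 families, listed as bicarbonate transporters, 2 were higher and 2 lower in KO at day 2. At day 11, 1 was higher and 2 were lower. The shares called over all genes were 20.1% at day 2 and 18.6% at day 11. Slc4a2, the chloride and bicarbonate exchanger of many cells, was at 8.47 and 8.43 in KO and 8.69 and 8.84 in WT at day 2, and at 8.36 and 8.46 in KO and 8.69 and 8.75 in WT at day 11. It fell by 0.32 ± 0.08 at day 2 and 0.31 ± 0.08 at day 11 (limma adjusted p = 0.0217 and 0.0241). Slc26a11, an anion transporter, rose by 0.70 ± 0.07 and 0.34 ± 0.07 (limma adjusted p = 0.000316 and 0.0113). Slc4a11, listed by its gene family, rose by 0.52 ± 0.10 at day 2 and fell by 0.64 ± 0.10 at day 11 (limma adjusted p = 0.0101 and 0.00382). Slc4a2 was also the 1 called gene among 4 measured binding partners of members, Slc4a1, Slc4a4 and Slc16a1 being the others.

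Of 14 measured proton and lactate transporters, 2 were higher and none lower in KO at day 2, and 1 was higher and 1 lower at day 11. Over all genes 20.1% were called at day 2 and 18.6% at day 11. Slc16a3, which exports lactate with a proton, gave 9.89 and 9.62 in KO and 8.62 and 8.58 in WT at day 2. At day 11 it gave 9.01 and 8.96 in KO and 8.45 and 8.53 in WT. The rise in KO was 1.16 ± 0.09 at day 2 and 0.49 ± 0.09 at day 11 (limma adjusted p = 0.00012 and 0.00762). Slc9a9, a sodium and proton exchanger of endosomes, rose by 1.61 ± 0.11 at day 2, and Slc9a2, an exchanger of the plasma membrane, fell by 0.9995 ± 0.09 at day 11 (limma adjusted p = 5.17e-05 and 0.000235). Of 23 genes of the vacuolar proton pump, which acidifies lysosomes, 1 was lower at day 2, Atp6v1g1 by -0.39 ± 0.06, and 2 were higher at day 11, Atp6v1a by 0.34 ± 0.07 and Atp6v0a1 by 0.26 ± 0.07 (limma adjusted p = 0.00422, 0.0104 and 0.0323). The remaining 22 and 21 pump genes were not called.

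Markers of further cell types moved unevenly with genotype, while 20.1% of all genes were called at day 2 and 18.6% at day 11. Of 11 neutrophil markers, 7 were higher and 1 lower in KO at day 2, and 2 were higher and 2 lower at day 11. Their summed linear signal was 2840 and 3021 in KO and 821 and 811 in WT at day 2, and 2863 and 2744 in KO and 990 and 887 in WT at day 11. The median difference of the list was 0.70 at day 2 and -0.06 at day 11. The neutrophil collagenase gene Mmp8 rose by 4.40 ± 0.14 and 3.23 ± 0.14 (limma adjusted p = 2.37e-06 and 1.13e-05). At day 11 it was at 11.07 and 11.09 in KO and 8.06 and 7.64 in WT, so the KO sums of that age rest largely on Mmp8. Of 17 epithelial markers, 2 were higher and 2 lower at day 2, and 1 was higher and 5 lower at day 11. Of 16 fibroblast and muscle markers none was called at day 2, and 1 was higher and 1 lower at day 11. Of 5 adipocyte markers 1 was lower at both ages, Plin1, a lipid droplet coat gene that was lower by -1.03 ± 0.15 and -1.32 ± 0.15 (limma adjusted p = 0.00197 and 0.000592). Of 14 markers of mast cells, basophils and eosinophils, 1 was higher at day 2, Cpa3, and none was called at day 11, and 13 were below the array median throughout. The part of these cells in the results for Car6, Car13 and Car1 was not tested.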

How the data were processed

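Per the submitters' processing notes, the authors summarised the arrays by RMA in R 2.15.2; the deposited table holds log2 values of 28874 probe sets on 8 arrays, which share 1 distribution. Per the labels' protocols, cells were sorted from digested lungs. The sources used here do not name the level of summary. Names came from the platform annotation: 21159 probe sets had 1 symbol, 1881 several and 5834 no entry. Where a gene had several probe sets, the one with the highest mean was used, leaving 18782 genes. Limma 3.58.1 in R 4.3.3 was fitted with 1 mean per group over all 8 arrays (4 residual and 3.77 prior degrees of freedom), with Benjamini-Hochberg adjustment over all genes and a threshold of 0.05. Errors are standard errors unless an SD is named. Members, lists, contrasts and the alternative settings were chosen with earlier results of these data known. The interferon list, the neighbouring genes and the promoter motifs were chosen after values were seen. Every member is named. Of each list, the genes to name were the called ones with the largest differences, at most 4 a list and age. Not all of these are printed, least of all for cell type markers, and a few genes outside the rule, such as Cdh5, are. The genes most like a member are the top 4 by Pearson r over the arrays, among genes with group means spanning at least 1 log2 unit. Alternatives were a filter on dim genes, another prior, fewer groups, other scalings and probe set rules, a replicate block and leaving out each array. The fit was tested on simulated data. Only 2 arrays per group limit the precision. Python 3.11.15 with matplotlib 3.10.9 made the figures.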

Additional observations from a re-analysis of the deposited data

Results flagged for a closer look

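Car6 was singled out because its genotype difference was not the same at the ages, by the test of that difference. KO exceeded WT by 1.60 at day 2 and by 4.29 at day 11, and the interaction was 2.69 ± 0.18 (SE, limma adjusted p = 0.000536), with both KO pools above both WT pools at each age. The signal was 9.14 and 9.48 in KO and 5.06 and 4.98 in WT at day 11, against 9.24 and 9.11 in KO and 7.72 and 7.45 in WT at day 2. At day 11 the CD11b gate differed with genotype, and its part cannot be told apart from that of the deletion. The labels do not say which gate each genotype came from at day 2.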

How the results depend on the processing

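None of the 8 member differences called with all arrays changed its sign under an alternative tried. Among differences not called with all arrays, 17 changes of sign occurred, 1 of them Car13 at day 2, at -0.14 without KO replicate 1 and 0.74 without KO replicate 2. The number of members called at day 2 (2) was 1 with dim genes left out, since Car1 is then not tested, and 1 to 3 without single arrays. At day 11 (2) it was 1 with a trended, robust prior and 1 to 2 without single arrays. With age it was 1 to 2 in KO (1) and 1 to 4 in WT (2) without single arrays, and in WT 4 when only the WT groups were fitted and 3 with the trended, robust prior. The interaction (1) gave 1 to 2. The cause of each lost call was not tested. Other scalings and adjustment over all probe sets changed no count of members. Neither did the mean over probe sets, which cannot alter the signal of a member, since each has 1 probe set. Deviations of same-numbered arrays correlated between groups with r from -0.08 to 0.25. The labels do not say whether such arrays shared a litter or day, and these r values cannot decide it. The replicate block changed no count of members either, giving 2 at day 2, 2 at day 11, 1 with age in KO, 2 in WT and 1 for the interaction, with Car6 at adjusted p = 1.3e-05 at day 11. Counts over all genes were, without single arrays, 2223 to 3605 at day 2 (3774 with all arrays), 2059 to 3760 at day 11 (3500), 1541 to 2985 with age in KO (2915), 233 to 1292 in WT (996) and 197 to 942 for the interaction (615), and with only the groups compared 1466 in KO and 1581 in WT. The interaction could not be fitted on fewer groups.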

Other observations

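Car2 serves osteoclasts, bone-resorbing cells of the macrophage lineage, and some genes known from these cells were higher in KO while Car2 had no call. Of 15 osteoclast genes, 5 rose, none fell and 10 were not called at each age, while 20.1% of all genes were called at day 2 and 18.6% at day 11 in either direction. The list had median differences of 0.19 at day 2 and 0.09 at day 11. It shares Ctsk and Atp6v0d2 with the alveolar macrophage list, and Tcirg1 and Atp6v0d2 with the proton pump list. Dcstamp, which is needed for cell fusion, gave 8.21 and 7.09 in KO and 4.60 and 4.83 in WT at day 2, and 7.15 and 7.61 in KO and 5.28 and 6.14 in WT at day 11. It rose by 2.93 ± 0.38 and 1.67 ± 0.38 (limma adjusted p = 0.00129 and 0.0195). The gelatinase gene Mmp9 rose by 1.86 ± 0.13 at day 2 and the protease gene Ctsk by 0.63 ± 0.06 at day 11 (limma adjusted p = 6.31e-05 and 0.000411).

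Of 13 water and gas channel genes, 1 was higher and 2 were lower in KO at day 2, and 1 was higher at day 11. Over all genes 20.1% were called at day 2 and 18.6% at day 11. The channel gene Aqp9, whose protein passes water and glycerol, gave 8.43 and 8.52 in KO and 7.999 and 8.04 in WT at day 2, and 9.08 and 9.39 in KO and 7.98 and 7.68 in WT at day 11. It rose by 0.45 ± 0.13 and 1.41 ± 0.13 (limma adjusted p = 0.0401 and 0.000205).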
